A study of Arabidopsis thaliana with 10 samples.

Results

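The nuclear chromatin peaks of a tagged LIMYB protein that were called in seedling line L1 and overlapped no peak called in line L4 are described here. They were chosen by comparing the measured peak lists of the lines: every L1 peak on chromosomes 1 to 5, counted once by position, was kept if no L4 peak touched it by 1 bp or more. This left 5285 of the 9604 nuclear L1 peaks, or 55.0% (95% Wilson interval 54.0 to 56.0), called L1-only peaks below. The other 4319 are called shared L1 peaks, and the 4636 of 8952 nuclear L4 peaks that overlap no L1 peak are called L4-only peaks. The lists of all lines together held 18916 peaks.

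Arabidopsis thaliana seedlings grown for up to 12 days and carrying a YFP-LIMYB transgene, labelled as LIMYB overexpression, were crosslinked, and chromatin was precipitated with an anti-GFP antibody, which also binds YFP, and sequenced. The samples fell into line L1 (2 samples), line L3 (4 samples) and line L4 (4 samples), all of the same labelled genotype. In L3 and L4 the titles carry the replicate numbers 1 and 2 with 2 suffixes each, so whether the 4 samples are 4 biological replicates is not clear from the labels. The labels give neither the promoter of the transgene nor whether the lines are independent insertions, and no untagged plants, control precipitations or input DNA are among the samples. Each line has 1 peak list and no column names a sample, so no value carries a replicate error and no difference between lines or peak sets could be tested against the spread of replicates.

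LIMYB is a MYB-domain transcriptional repressor that acts downstream of the receptor kinase NIK1, which restrains translation in antiviral defence by way of the ribosomal protein RPL10. Chromatin immunoprecipitation recovers DNA crosslinked to the tagged protein, and a peak caller reports where the recovered fragments pile up above a local background. A peak in 1 list without a partner in the other means that the other list has no call at that place, not that the other line had no signal there.

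The values of each peak are the authors' own. The pileup counts overlapping fragments at the summit, the fold is read here as that signal over a background estimate, and the q-value is given as −log10. L1-only peaks were low and narrow within the L1 list. Their median fold was 8.16 (quartiles 7.21 and 9.43, range 1.74 to 27.15), and that of shared L1 peaks was 9.92 (quartiles 7.83 and 13.05, highest 36.21). Their median pileup was 17 fragments (quartiles 15 and 21), against 23 (quartiles 17 and 33) for shared L1 peaks. The ranges of both sets overlap widely, with the L1-only quartiles lower throughout. Their median −log10 q was 8.80 against 13.22. Their median width was 212 bp against 247 bp. A width of exactly 200 bp, the smallest in the list, was held by 1306 L1-only peaks (24.7%, interval 23.6 to 25.9) and by 382 shared L1 peaks (8.84%, 8.03 to 9.73). Within the L4 list, L4-only peaks had a median fold of 10.9, a median pileup of 16, a median −log10 q of 9.92 and a median width of 223 bp, against 12.45, 20, 13.41 and 255 bp for L4 peaks that overlap an L1 peak. A width of 200 bp was held by 21.3% of the former and 10.2% of the latter, so the unshared peaks of L4 were also the lower and narrower ones of their list. These values come from the lists that chose the members and are given as a description.

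Many L1-only peaks carried identical values, and so did many shared L1 peaks. A fold of 7.83 occurred in 440 L1-only peaks, of which 437 had a pileup of 15. A fold of 8.35 occurred in 348, all with a pileup of 16, and a fold of 7.31 in 347, of which 344 had a pileup of 14. Between these repeated values, a step in fold corresponds to a single fragment at the summit. Elsewhere the same fold can stand for different pileups: L1-only peaks at AT1G20120 and AT1G32990 had folds of 8.42 and 8.43 with pileups of 17 and 28 (chosen after their values were seen).

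The share of L1-only peaks fell along the L1 list from weak to strong. When nuclear L1 peaks were ordered by fold into 10 groups of equal size, L1-only peaks made up 61.5% of the lowest group (fold up to 6.27) and 71.2% of the fourth (fold 7.65 to 8.08). The share was 53.6% in the seventh group and 16.4% (interval 14.2 to 18.9) in the highest. There 158 of 961 peaks were L1-only, and the lowest fold was 14.49. Peaks of equal fold at a group edge were split by their order in the list. The lowest group thus had a smaller share than the groups next to it. By pileup, the share was 72.7% at 8 to 12 fragments (interval 68.2 to 76.8) and 73.8% at 13 to 14 (71.1 to 76.4). These intervals overlap widely. The share was 72.9% at 15 to 16, 52.7% at 21 to 25 and 12.7% (99 of 782, interval 10.5 to 15.2) above 40. The list background of 55.0% therefore covers shares that depend strongly on peak height.

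**Figure D1:**
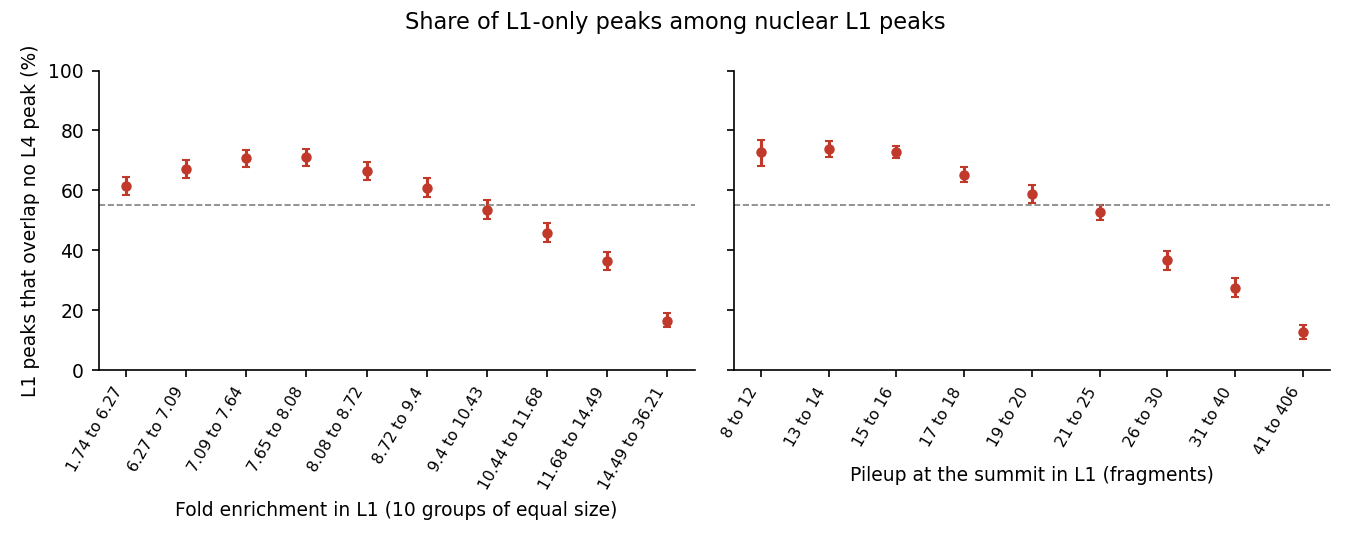
Percentage of nuclear L1 peaks that are L1-only, by fold group (left) and by summit pileup in fragments (right); points are shares, bars are 95% Wilson intervals and the dashed line is the share over all nuclear L1 peaks, 55.0%. The share is 71.2% in the fourth fold group and 16.4% in the highest, and 12.7% above 40 fragments.

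Ranked by fold, the strongest L1-only peaks lay at genes of varied function. They do not include the highest pileup (228) or the highest −log10 q (72.21) of the L1-only peaks. The highest fold was 27.15, with a pileup of 52 and a −log10 q of 51.88, at chr3:18809161-18809449 (positions are those of the files, whose genome build is not given in the sources used here), downstream of AT3G50651. Next came AT2G23755 with a fold of 24.02, its summit 4338 bp upstream of the gene, and AT2G16250 with 23.47, its summit 2514 bp upstream. Neither identifier carries a symbol in the name table used. AGC1.7, a protein kinase of the AGC family known from pollen tube growth, had a peak inside the gene at chr1:29811868-29812175 with a pileup of 56 and a fold of 23.14. AT2G39420 followed, with a fold of 22.73 across its 5′ end.

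TT5, the chalcone isomerase of flavonoid synthesis, had a peak with a pileup of 57 and a fold of 20.36 at chr3:20432286-20432601, its summit 964 bp upstream of the gene. The nearest L4 peak to it was 31331 bp away. NP3, a MAP kinase kinase kinase, had a peak of the same fold and a pileup of 39 inside the gene, but an L4 peak lay 542 bp from it. TBL45, a member of the TRICHOME BIREFRINGENCE-LIKE family of cell wall acetylation proteins, had a fold of 20.3 at a peak downstream of the gene. The other members among the 12 highest were at AT5G29050 (20.44), AT3G42560 (20.17), AT3G17570 (20.16) and AT4G38700 (20). These 12 peaks are thus spread over upstream, genic and downstream positions, and all had at least 39 fragments at the summit.

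Peaks were placed relative to the gene that the authors assigned by nearest location. Of the L1-only peaks, 42.4% (interval 41.0 to 43.7) lay upstream of the assigned gene, 5.66% across its 5′ end, 28.1% (26.9 to 29.3) inside it, 5.45% (4.87 to 6.09) across its 3′ end and 18.4% (17.4 to 19.5) downstream, and 4 peaks spanned a whole gene. Shared L1 peaks were also upstream in 42.4%. L1-only peaks were more often inside genes than shared L1 peaks (23.5%, 22.2 to 24.8), and L4-only peaks more often still (31.6%, 30.3 to 33.0). They were less often across 3′ ends than shared L1 peaks (8.10%, 7.33 to 8.96). In both of these comparisons the intervals, which cover counting error only, do not overlap, and neighbouring peaks are not independent. The order held in 9 of the 10 fold groups for each. The exception for peaks inside genes was the highest group, with 40 of 158 L1-only (25.3%) and 209 of 803 shared L1 peaks, a slightly larger share. The exception for 3′ ends was the second lowest group, with 4.81% and 4.11%. Both classes also depend on width, since a wider peak crosses a gene end more easily. Shared L1 peaks were the wider ones (median 247 bp against 212 bp), and the part of width in these differences was not tested.

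L1-only peaks were also less often far from a gene. Of them, 540 (10.2%, interval 9.43 to 11.1) were over 10000 bp from the nearer end of the gene they were assigned to, against 614 shared L1 peaks (14.2%, 13.2 to 15.3) and 8.61% of L4-only peaks. The order of the L1 sets was the same within each of the 10 fold groups: in the lowest group 29.1% of L1-only and 35.1% of shared L1 peaks were that far, and in the highest 5.06% and 11.2%. The difference was thus seen in every fold group, although the highest held only 8 such L1-only peaks. It was not examined by pileup.

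The promoter window spans 1000 bp before and 100 bp after the 5′ end of the assigned gene. It was touched by 1386 L1-only peaks (26.2%, interval 25.1 to 27.4), by 1073 shared L1 peaks (24.8%, 23.6 to 26.2) and by 26.2% of L4-only peaks. Among peaks within 10000 bp of a gene the shares were 29.2%, 29.0% and 28.7%. Over all peaks the intervals of the 3 sets thus overlap. In the lowest 3 fold groups together the intervals of the L1 sets do not overlap, with 23.3% (21.5 to 25.2) of L1-only and 18.4% (178 of 966, lower bound 16.1) of shared L1 peaks touching the window. However, 17.4% and 23.1% of these peaks were over 10000 bp from the assigned gene. Among those within 10000 bp the shares were 28.21% (lower bound 26.05) and 23.96% (upper bound 27.15), and these intervals overlap. Over all peaks of the highest fold group the shares were 30.4% (48 of 158, 23.7 to 37.9) and 25.7% (22.8 to 28.8). The L1-only share over all peaks was the higher one in 8 of the 10 groups.

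**Figure D2:**
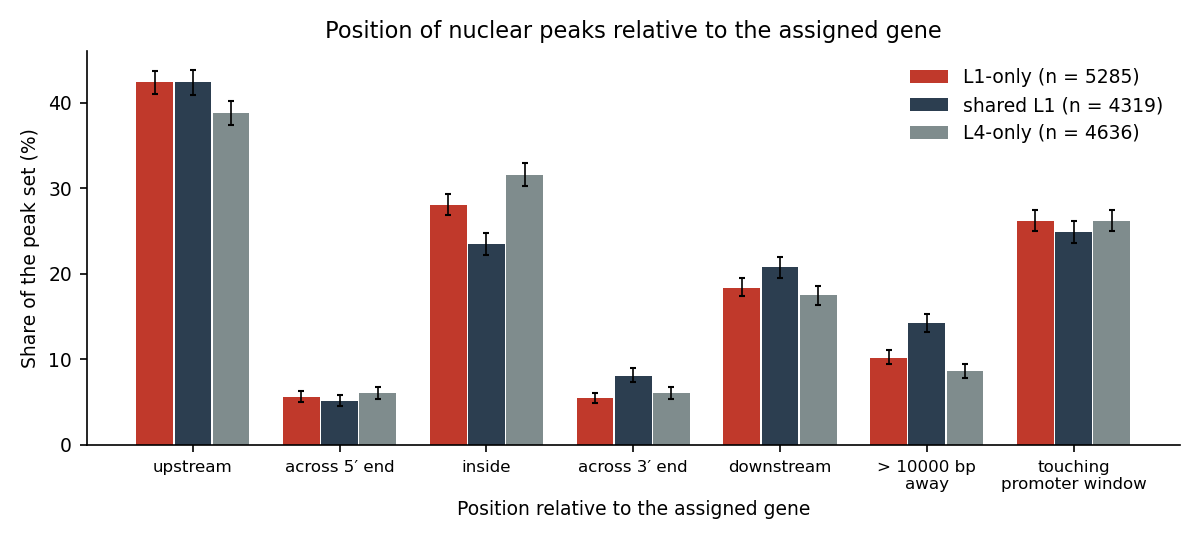
Share of each peak set (%) in each position relative to the assigned gene, for L1-only, shared L1 and L4-only peaks; bars are shares and lines are 95% Wilson intervals, and the last 2 classes overlap with the others. L1-only peaks lie inside genes in 28.1% against 23.5% of shared L1 peaks and over 10000 bp away in 10.2% against 14.2%, while promoter shares are 26.2% and 24.8%.

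Summits of L1-only peaks were densest just upstream of gene starts. The 500 bp upstream of the 5′ end held 702 summits (13.3% of L1-only peaks), against 13.2% of shared L1 and 13.3% of L4-only summits. The next 500 bp upstream held 429 (8.12%). Per 100 bp, the share was highest from 200 to 100 bp upstream, at 3.31%, and was 1.04% from 100 to 200 bp downstream. The first 500 bp downstream held 417 summits (7.89%, interval 7.19 to 8.65), against 6.37% (5.68 to 7.13) for shared L1 peaks and 7.81% for L4-only peaks. These intervals do not overlap for the L1 sets, and the L1-only share is close to that of L4-only peaks. Genes were also cut into 4 equal stretches. Of the 1483 L1-only peaks inside genes, 22.2% had their summit in the stretch nearest the 5′ end, 35.5% in the next, 29.7% in the one after and 12.6% in the last, and for shared L1 peaks the first 3 values were 20.7%, 34.4% and 31.9%. Among peaks lying wholly inside genes, summits were thus least frequent in the last stretch in both sets. Peaks across a gene end are not in this class, which thins both outer stretches. Across 3′ ends lay 288 L1-only and 350 shared L1 peaks, so no shortage of summits near the 3′ end is read from these values.

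**Figure D3:**
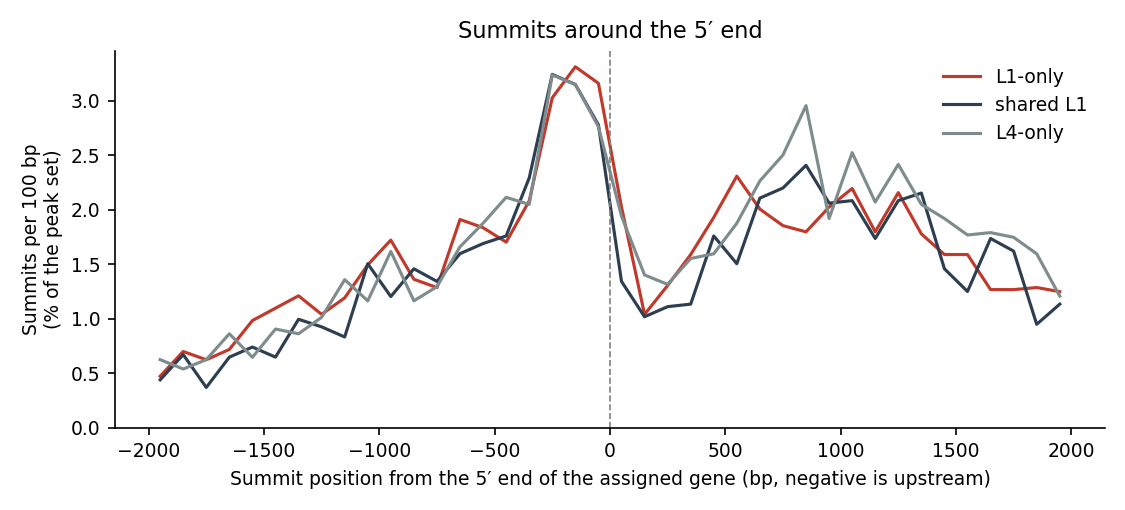
Summits per 100 bp, as a percentage of each peak set, against the distance from the 5′ end of the assigned gene in bp (negative is upstream) for L1-only, shared L1 and L4-only peaks. All 3 lines are highest between 300 bp upstream and the 5′ end, where L1-only peaks reach 3.31% per 100 bp, and lowest towards the upstream edge.

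L1-only peaks occurred on all 5 chromosomes in similar proportion. They were 55.8% of L1 peaks on chromosome 1 (1303 peaks), 52.2% on chromosome 2 (842), 55.8% on chromosome 3 (1063), 53.7% on chromosome 4 (830) and 56.6% on chromosome 5 (1247). The interval of chromosome 2, 49.8 to 54.7, barely overlaps that of chromosome 5, 54.5 to 58.7, and the other chromosomes lie between them. Over 240 bins of 500000 bp the median was 21 L1-only peaks (range 3 to 53). In the 238 bins with at least 20 L1 peaks, the median share of L1-only peaks was 56.1%. The extremes of this share were named after their values were seen. They were 9 of 30 peaks (interval 16.7 to 47.9%) at chr1:7500001-8000000 and 27 of 36 (58.9 to 86.2%) at chr3:3000001-3500000.

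The bins with most L1-only peaks were gene-poor by the distances of their peaks. The highest count, 53 of 94 L1 peaks, was at chr1:15000001-15500000, where 44 of the 53 lay over 10000 bp from the assigned gene. On chromosome 3, chr3:13500001-14000000 held 40 L1-only peaks of 77, 39 of them that far, and chr3:12500001-13000000 held 41 of 59, of which 20 were. On chromosome 4, chr4:3000001-3500000 held 40 of 87, with 34 far. On chromosome 5, chr5:11500001-12000000 held 37 of 83, with 33 far. These bins are rich in L1 peaks of both kinds, and in all but chr3:12500001-13000000 the L1-only share was between 44.6% and 56.4%. The centromeric regions of Arabidopsis are rich in repeats, where short reads are hard to place, and the part of such placement in these counts was not tested.

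The same regions supplied the genes with most L1-only peaks assigned to them. AT3G33187 and AT5G30520 had 20 each, 19 of them over 10000 bp away in both cases. AT1G40129, AT1G40390 and AT3G32980 had 19 each, of which 14, 16 and 19 were that far, and AT1G40104 had 16, of which 15 were. For AT1G40104 the median fold of these peaks was 4.41 and for AT5G30520 it was 5.82, both below the 8.16 of all L1-only peaks. A count of peaks assigned to these genes is thus mostly a count of distant, weak peaks.

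Few L1-only peaks were near misses of an L4 peak. The gap to the nearest L4 peak had a median of 4723 bp (quartiles 1954 and 9174, range 3 to 53983). A gap of at most 100 bp was found for 13 L1-only peaks (0.246%), of at most 500 bp for 326 (6.17%) and of at most 1000 bp for 717 (13.6%). At most 10000 bp separated 4138 (78.3%) from an L4 peak. For the 158 L1-only peaks of the highest fold group the median gap was 6628.5 bp (range 150 to 36856), so the strong L1-only peaks lay no closer to L4 peaks than the rest. Within the L1 list itself, 323 L1-only peaks (6.11%) had a shared L1 peak within 1000 bp.

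**Figure D4:**
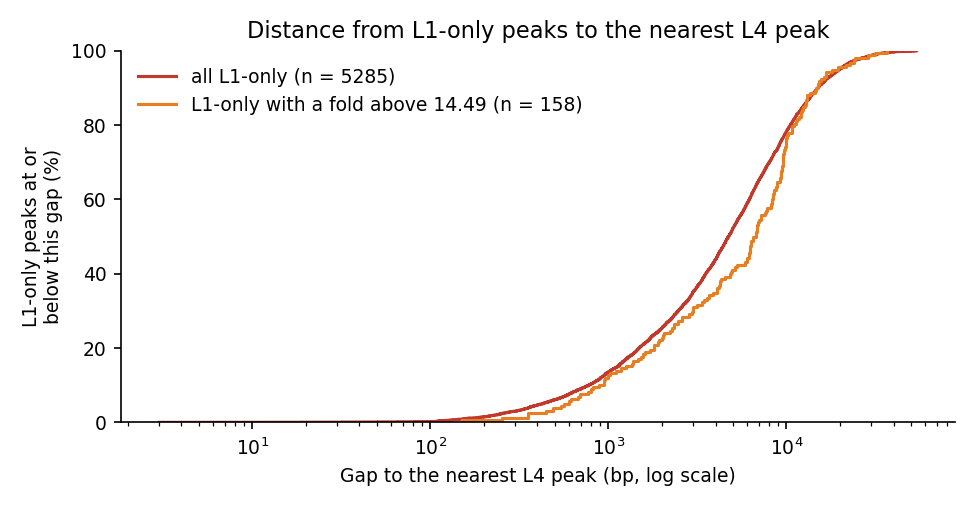
Cumulative percentage of L1-only peaks against the gap to the nearest L4 peak in bp (log scale), for all 5285 L1-only peaks and for those with a fold above 14.49. A gap of at most 1000 bp holds 13.6% of all L1-only peaks. The median gap is 4723 bp for all and 6628.5 bp for the 158 in the highest fold group.

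At the edge of the rule, the members with the smallest gaps were at AT5G26180 (gap 3 bp, fold 7.83), AT1G49740 (8 bp, 6.70) and YSL6, a metal-nicotianamine transporter (19 bp, 9.40). The L1 peaks that only just counted as shared were at AT5G19580 (overlap 2 bp, fold 7.54), NRAMP4, a vacuolar metal transporter (7 bp, 7.83), and AT5G34581 (8 bp, 5.72). The fold of YSL6 is near the upper quartile of L1-only peaks, and the other 5 folds are below their median.

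At the level of genes, L1-only peaks were assigned to 4363 genes, of which 3829 had 1 such peak and 534 had 2 or more, and 11 L1-only peaks were assigned to more than 1 gene. Among the 27432 nuclear protein-coding genes of the RefSeq name table, 4261 (15.5%) had an L1-only peak assigned at any distance, and 1353 (4.93%) had one in the promoter window. Peaks were counted only for the gene they were assigned to, so a peak assigned to a neighbour can lie in an uncounted gene's window. Of the 4261 genes, 1176 (27.6%) also had an L4 peak assigned, against 24.4% of all genes, and 630 (14.8%) a shared L1 peak, against 12.4%. Of the 1353 promoter genes, 53 (3.92%) had an L4 peak elsewhere in the window, against 8.05% of all genes, and 20 (1.48%) a shared L1 peak, against 3.81%. The rule itself lowers these promoter counts, since it takes out every L1 peak that touches an L4 peak, and nothing is read from them. In 13 genes the window held 2 or more L1-only peaks. The median fold of L1-only promoter peaks was 8.35.

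By fold, the strongest L1-only promoter peaks were those of AT2G39420, TT5, AT3G17570 and AT4G38700 given above, followed by BOR1. BOR1, a boron exporter that loads the xylem, had a peak across its 5′ end at chr2:19361057-19361305 with a pileup of 38, a fold of 19.84 and a summit 3 bp upstream of the 5′ end. AT1G54730 had a fold of 19.61, AT2G39260 and AT3G61490 had 19.32 each, and AT3G50290 had 18.75 with a pileup of 60. AT5G51800 (18.69), AT1G04645 (18.32) and AT1G26730 (18.27) completed the 12 highest.

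In some promoters both lines had a peak at different places. In L4, BOR1 had a peak of fold 18.68 with its summit 1008 bp upstream, 695 bp from the L1-only peak. LSU1, of the RESPONSE TO LOW SULFUR family, had an L1-only peak of fold 11.49 with its summit 107 bp upstream and an L4 peak of fold 10.9 with its summit 667 bp upstream. RUS5, of the ROOT UV-B SENSITIVE family, had an L1-only peak of fold 11.79 with its summit 33 bp upstream and an L4 peak of fold 8.97 with its summit 383 bp upstream. At these genes an L1-only peak is a second position in a promoter with a call in each line. At AT3G10130, AT1G54590 and AT5G22730 the L1-only peaks, with folds of 13.05, 12.83 and 12.53, had their summits 556 to 856 bp upstream, and the L4 peaks had theirs between 107 bp upstream and 73 bp downstream. Folds are relative to each list's own background, so no difference between lines is read from them.

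Gene groups were described for 23 lists. Here too only peaks assigned to a list gene were counted, so a gene without one can still have a neighbour's peak in its window. Together they held 929 genes, of which 35 (3.77%) had an L1-only promoter peak, against 4.93% of all genes, and 10 of the lists had none. The lists as a whole were therefore no richer in L1-only promoter peaks than the genome.

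The pathway of LIMYB itself had no L1-only promoter peak in its 7 genes (Wilson upper bound 35.4%). Of these, 2 had an L1-only peak elsewhere: SAG24, an RPL10 family protein, with a fold of 8.50 inside the gene, and RPL10B, a paralogue of the ribosomal protein RPL10A, with 8.35 across its 3′ end. Both folds are near the median of all L1-only peaks. The share of these 2 genes has an interval of 8.22 to 64.1%, which includes the 15.5% of all genes at any distance. Reads of RPL10 genes can be hard to tell apart, since the copies are very similar. Among 11 genes of pattern-triggered and salicylate immunity none had an L1-only promoter peak. EFR, the receptor for bacterial elongation factor Tu, had one downstream with a fold of 7.83.

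Of the genes for translation, none of the 34 ribosomal protein genes with an RPL or RPS symbol in the name table had an L1-only promoter peak (upper bound 10.2%). Ribosomal protein genes named otherwise are outside this list, so the count does not describe the whole family. Of the 34, RPS5A (fold 8.88) and RPS5B (7.21) had an L1-only peak inside the gene. Translation initiation factors had 4 of 21, a share whose interval starts at 7.67%. These were EIF3G1, a subunit of initiation factor 3, with a pileup of 19 and a fold of 9.92, EIF2 GAMMA, a subunit of the factor that brings the initiator tRNA, with a pileup of 18 and a fold of 9.40, the gene named EIF2 in the table (AT2G39990) with 15 and 7.83, and EIF4G, the scaffold of the cap-binding complex, with 13 and 6.57. That lower bound is above the 4.93% of all genes. The list was chosen with results of these data known, the count is 4 genes, and the L1-only peak of AT2G39990 lies 32 bp from an L4 peak. Leaving out genes with an L4 peak in the window gives 3 of 21 (lower bound 4.98%, background 4.74%), and the upper 50% of L1 peaks by fold gives 2 (2.65%, background 2.10%). In L4, 1 of the 21 genes had a promoter peak, against 8.05% of all genes.

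The photosynthetic lists, which the series description names as a question of the study, were split. The light-harvesting antenna had an L1-only promoter peak in 3 of 20 genes (interval 5.24 to 36.0%). They were LHCB4.3, a minor antenna protein of photosystem II, with a pileup of 18 and a fold of 9.40, CAB1 with 21 and 5.90, and LHB1B1 with 25 and 4.46. CAB1 and LHB1B1 encode major antenna proteins that have near-identical copies, so reads could be split among them and these peaks are uncertain. Without genes that have an L4 peak in the window the count was 2 of 20, with a lower bound of 2.79% below the background of 4.74%, and with the upper 50% of L1 peaks by fold it was 1. An L4-only promoter peak was also found in 3 genes of this list, against 4.34% of all genes. None of 12 photosystem I genes and none of 14 genes for electron transport and the plastid ATP synthase had an L1-only promoter peak, while 5 of the latter had a shared L1 one, against 3.81% of all genes. PETE1, a plastocyanin, had an L1-only peak of fold 8.35 across its 3′ end.

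In photosystem II, 1 of 13 genes had an L1-only promoter peak, PSBW with a pileup of 14 and a fold of 7.31. PSBY, a small subunit, had a much higher peak outside the window, with a pileup of 37, a fold of 19.32 and a summit 1309 bp upstream. NPQ4, the PsbS protein of photoprotective quenching, had one of fold 10.44 with its summit 1411 bp upstream. Both were named after their values were seen, and both lie just beyond the window, so their place in the count depends on the window chosen. In the Calvin-Benson cycle, 1 of 19 genes had an L1-only promoter peak, SBPASE, the sedoheptulose bisphosphatase, with a fold of 9.40 across its 5′ end. RBCS1B, a small subunit of Rubisco, had one inside the gene with a fold of 8.35 and also has similar copies.

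Of 11 clock genes, GI, which links the clock to flowering time, had an L1-only peak of fold 7.83 across its 5′ end and another of fold 7.31 inside the gene. PRR5, a clock repressor, had one of fold 7.83 whose summit was 2450 bp upstream. Of 10 genes of RNA silencing, DCL3, the Dicer-like enzyme of the heterochromatic small RNA pathway, had an L1-only promoter peak with a pileup of 11 and a fold of 5.74. All of these folds are below the median of L1-only peaks.

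Among transcription factors, the promoter shares lay on both sides of the share over all genes. NAC genes had 6 of 81 (7.41%, interval 3.44 to 15.2), led by NAC041 (fold 9.40), the NAC2 gene AT5G04410 (8.40), NAC010 (8.19), a factor of secondary wall formation, and NAC103 (7.31), known from the response to endoplasmic reticulum stress. MYB genes, the family of LIMYB's own domain, had 4 of 116 (3.45%, 1.35 to 8.53). They were MYB62 with a pileup of 28 and a fold of 12.28, MYB29, a regulator of aliphatic glucosinolate synthesis, with 15 and 7.83, MYB60, a guard cell factor, with 12 and 6.27, and MYB92 with 13 and 6.25. WRKY genes had 1 of 67, WRKY6, with a fold of 9.92 and a summit 131 bp upstream. The 13 genes with a bHLH symbol in the name table had none. Family members named otherwise are outside that list, so its count does not describe the bHLH family. The intervals of all these lists include 4.93%.

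At any distance, 24 MYB, 16 NAC and 10 WRKY genes had an L1-only peak assigned, against a background of 15.5% of all genes. By fold, the strongest of these, named after their values were seen, were at MYB2 (15.38, summit 1943 bp upstream), WRKY35 (14.36, inside) and NAC094 (13.26, inside). As shares of their families, these counts are 20.7%, 19.8% and 14.9%.

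Receptor-like proteins, membrane receptors without a kinase domain, had an L1-only promoter peak in 6 of 52 genes (11.5%, interval 5.40 to 23.0). They were RLP52 (fold 9.91), RLP29 (9.40), RLP51 (9.38), RLP38 (7.08), RLP27 (6.27) and RLP44 (5.22), the last known from brassinosteroid signalling at the cell wall. The peak of RLP29 lay 109 bp from an L4 peak. The interval starts just above the background of 4.93%. It includes the background when genes with an L4 peak in the window are left out (5 of 52, lower bound 4.18%, background 4.74%) and for the upper 50% of L1 peaks by fold (3 of 52, 1.98%, background 2.10%). A shared L1 promoter peak was found in 4 genes of the list and an L4-only one in 2, against 3.81% and 4.34% of all genes. None of 29 calcium-dependent protein kinases and none of 14 PERK receptor-like kinases had an L1-only promoter peak.

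Cytochrome P450 genes had 5 of 219 (2.28%, interval 0.979 to 5.24), led by CYP71B14 (fold 10.43) and CYP83A1 (9.60), an enzyme of glucosinolate synthesis, and followed by CYP71A20 (8.35) and CYP702A1 (7.83). Of 46 genes with aquaporin-type symbols, 1 had an L1-only promoter peak, the plasma membrane aquaporin PIP2;8 with a fold of 9.05. Genes outside the family can carry such symbols, so 46 is not a count of aquaporins. Outside the window, NIP5;1, a boric acid channel, had a peak of fold 13.72 across its 3′ end, named after its value was seen. Expansins, which loosen cell walls, had 1 of 35, EXPA13 with 7.41. In gene bodies 6 of the 35 had an L1-only peak (lower bound 8.10%, background 7.26%), given after the values were seen. At any distance 8 had one, with an interval of 12.1 to 39.0% that includes the 15.5% of all genes. None of 40 cyclin genes (upper bound 8.76%) and none of 46 auxin response factor and Aux/IAA genes (upper bound 7.71%) had an L1-only promoter peak, although 6 and 8 of them had one elsewhere.

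**Figure D5:**
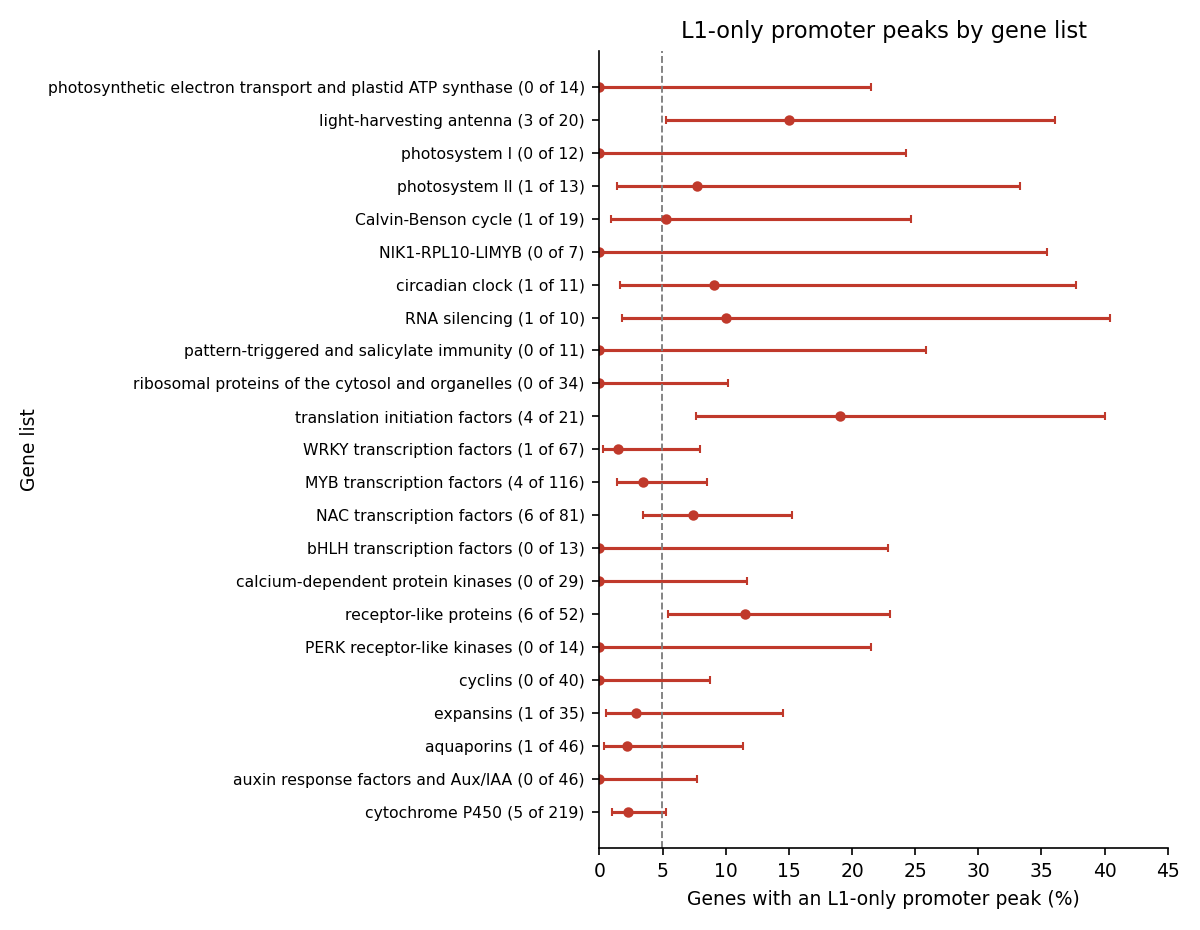
Percentage of genes in each of 23 lists that have an L1-only promoter peak, with 95% Wilson intervals; the counts stand beside each list name and the dashed line is the share over all nuclear protein-coding genes, 4.93%. The points of translation initiation factors (4 of 21), the light-harvesting antenna (3 of 20) and receptor-like proteins (6 of 52) have intervals above the line, which for the last 2 include the background once genes with an L4 peak in the window are left out, and 10 lists are at 0.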

How the data were processed

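Peaks were called with MACS2, per the submitters' processing notes. How it was run, on which alignments, with which control and whether replicates were merged first is not given in the sources used here, nor is the build. Per the file headers, the deposited values are a pileup (signal, in fragments), a fold enrichment (ratio) and q-values as −log10. Sequencing depth is unknown.

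L1 had 9775 entries (9759 peaks) and L4 had 9160 (9145); the 12 peaks of L3 were not nuclear. Overlaps, gaps and positions were computed with Python 3.11.15, numpy 2.4.6, pandas 2.3.3 and scipy 1.17.1, with figures in matplotlib 3.10.9, and the overlap code was tested on simulated data. Summit distances were taken to the assigned gene's 5′ end. Symbols were read from the RefSeq table of the TAIR10.1 assembly, which held 4263 of 4363 assigned genes (97.7%). Intervals are 95% Wilson intervals and cover counting error only. No significance test was run, since no list has replicates.

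Members, lists and rules were chosen with earlier results of these data known. Resistance genes caught by the symbol pattern for ribosomal proteins were taken out after values were seen. Named genes were the 12 L1-only peaks of highest fold, the 12 of highest fold in promoter windows, up to 4 promoter genes per list by fold, every NIK1-RPL10-LIMYB gene with an L1-only peak, the 3 peaks on each side of the rule, and the 6 genes and 5 bins with most members. Further list genes with an L1-only peak outside the promoter window (such as EFR, PETE1, RPS5A, PRR5, RBCS1B and MYB2) and the receptor-like proteins RLP27 and RLP44 fall outside this rule and were named after their values were seen. The rule also takes the 6 genes of highest fold with separate L1-only and L4 promoter peaks. Promoter sequences and motifs were not analysed here.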

Additional observations from a re-analysis of the deposited data

Results flagged for a closer look

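L1 peaks without an overlapping L4 peak also occurred on the organelle genomes, which the comparisons above leave out. On the plastid genome 6 of 73 L1 peaks overlapped no L4 peak, with folds of 2.54 to 2.92 and pileups of 91 to 196. On the mitochondrial genome 18 of 82 did, with folds of 3.39 to 7.59 (median 5.28) and pileups of 20 to 64. They were picked out because they are a signal outside the nuclear peaks, and there are no control samples to set them against. Their folds lie below the nuclear L1-only median of 8.16, and their pileups are at or above the nuclear L1-only median of 17.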

How the results depend on the processing

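The share of L1-only peaks was 58.9% when summits within 100 bp counted as shared, 47.6% with gaps up to 1000 bp shared, 73.4% against the upper 50% of L4 peaks by fold, and 56.2% for L1 peaks within 10000 bp of a gene. For the upper 50% of L1 peaks by fold it was 42.6% (2047 peaks), with 16.3% downstream, 6.06% over 10000 bp away and 28.7% touching the promoter window, and with medians of 10.08 for fold, 21 for pileup and 232 bp for width. For peaks with −log10 q of at least 10 it was 41.1% (2083 peaks), with 25.7% inside, 19.9% downstream and 12.0% over 10000 bp away, and with medians of 9.94, 22 and 234 bp. Genes with an L1-only promoter peak numbered 575 for the upper 50% by fold and 4261 at any distance. Genes of the 23 lists numbered 57 with a window of 2000 bp upstream to 200 bp downstream, 72 in gene bodies, 139 at any distance and 13 for the upper 50% by fold. Fewer peaks or wider windows enter by construction; beyond that the cause was not tested. The other 26 settings of these results stayed within the counting interval or within 1.5 times the count. Of the counts of single lists, 83 stayed within 1.5 times and 55 did not. No paired analysis was possible because no column carries a replicate number: a line has 1 list, and no replicate could be left out. Sequencing depth is unknown, and its part in which weak peaks were called was not tested. The search for promoter motifs was not run.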
